A study of Homo sapiens with 19 samples.

Results

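The 48 genes described here encode the proteins that license, start and carry out the copying of nuclear DNA. They were taken from a fixed list of gene names and not by a rule on measured values. The choice was made with earlier results of these data known. All 48 were found by gene ID among the 19942 rows of the TPM table and of the eCLIP table. The list holds the 6 subunits of the MCM2-7 helicase, MCM8 and MCM10, the 6 subunits of the origin recognition complex (ORC), the licensing factors CDC6 and CDT1, CDC45 with the 4 GINS subunits, 12 subunits of the polymerases alpha, delta and epsilon, PCNA with the 5 subunits of its loader RFC, the 3 subunits of replication protein A (RPA), FEN1, LIG1 and DNA2, TOP2A, and the ribonucleotide reductase subunits RRM1 and RRM2.

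As background, ORC marks replication origins, and CDC6 and CDT1 then load the MCM2-7 ring onto DNA in G1 phase. CDC45 and GINS turn the ring into an active helicase, polymerase alpha with primase lays down primers, and polymerases epsilon and delta extend the leading and the lagging strand while PCNA holds them on the template. Most of these genes are transcribed under E2F control as cells enter S phase, and neuroblastoma cells in culture, which divide continuously, keep them expressed.

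All samples were SH-SY5Y cells, a human neuroblastoma line. G3BP1 and G3BP2, the RNA-binding core proteins of stress granules (SGs), were each precipitated with their crosslinked RNA by eCLIP from untreated cells and from cells exposed to sodium arsenite (AS), with 2 libraries per protein and treatment. Poly-A RNA-seq comprised 1 library each of cells given a control siRNA (siCtrl), siG3BP1 or siG3BP2, and of cleared lysate (Total) and purified SG cores (SG) of AS-treated cells, the cores being pulled down with an anti-G3BP1 antibody. rRNA-depleted RNA-seq comprised 1 library of untreated and 1 of AS-treated cells. The AS sample of the rRNA-depleted pair is labelled 500 μM for 1 h, whereas the other AS samples carry 50 mM for 1 h in their treatment field. That field gives the same AS exposure for the untreated eCLIP and the siRNA libraries too, although no other label names it there. The study's methods give 500 μM for 1 h as the AS exposure and name no other dose. With 1 library per RNA-seq condition, no difference between RNA-seq libraries has a replicate check or a p-value, and it is not stated whether eCLIP duplicates came from separate cultures. Fewer cells that express a gene and less RNA per cell cannot be told apart in such bulk samples.

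The libraries fitted their labels. G3BP1 was at 18.7 TPM in siCtrl and 5.996 TPM in siG3BP1, and G3BP2 was at 38.1 TPM in siCtrl and 11.4 TPM in siG3BP2. Of 12 sympathetic neuroblast markers, 11 were above 1 TPM in each of the 5 TPM libraries, TH being the exception. The 5 epithelial markers summed to 0.618 to 1.77 TPM, with KRT5 at 0 in each library, and the 4 immune markers summed to 0.553 to 3.07 TPM outside SG and to 29.7 TPM in SG, of which CD68 made up 28.7. The 6 mesenchymal markers, all above 1 TPM in each library, summed to 44.3 to 62.3 TPM outside SG and to 181 TPM in SG. The part of these cells or RNAs in the results below was not tested.

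The promoters of the list share sequence features that its choice did not use. RefSeq promoters (GRCh38.p14, 250 bases before to 50 after the start site) were found for 41 of the 48 genes. One of the 4 common forms of the E2F site (TTTCCCGC, TTTCGCGC, TTTGCCGC or TTTGGCGC, on either strand, overlapping matches included) occurred in 19 of these 41 promoters (46.3%). The same letters occurred in 3.33% of all 27305 promoters and in 4.44% of the 15842 promoters of protein-coding genes. The box CCAAT occurred on either strand in 26 of the 41 promoters (63.4%) and in 35.7% of all promoters. TTTGAA, the core of the CHR element known from mitotic genes, occurred in 2 of the 41 (4.88%), RRM1 and TOP2A, and in 15.4% of all promoters. Such a match is a run of letters and no measured binding site.

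Of the genes that recur below, 6 promoter stretches are shown here as 28 bases in the direction of the gene, with the E2F letters in capitals. In MCM2 (chr3:127598403-127598430, plus strand) and CDC6 (chr17:40287876-40287903, plus strand) they lie just after the start site, in MCM7 (chr7:100101389-100101416, minus strand), CDT1 (chr16:88803744-88803771, plus strand) and PCNA (chr20:5126664-5126691, minus strand) at most 59 bases before it, and in POLA1 (chrX:24693771-24693798, plus strand) farther upstream, 137 bases before it.
MCM2: gtgaaccactTTTCGCGCgaaacctggt
CDC6: gccattcggaTTTGGCGCgagcgcggct
MCM7: gggggcgacgTTTCGCGCcaatttcggt
CDT1: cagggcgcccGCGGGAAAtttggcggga
PCNA: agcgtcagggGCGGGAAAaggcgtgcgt
POLA1: tcatcacaggGCGCCAAAcgcgcgtccg

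The first question was how strongly the genes were expressed. All 48 were above 1 TPM in siCtrl, 43 of them above 10 TPM and 7 above 100 TPM, and their median was 30.1 TPM against 14.0 TPM for the 11995 genes above 1 TPM. Together they made up 0.409% of the summed TPM in siCtrl, and between 0.358% (Total) and 0.525% (SG) in the 5 libraries. The lowest in siCtrl was DNA2, a nuclease-helicase of Okazaki fragment processing, at 5.53 TPM. MCM7 was the highest in all 5 libraries, at 407 TPM in siCtrl, 379 in siG3BP1, 395 in siG3BP2, 372 in Total and 625 in SG. PCNA, the sliding clamp, came next in every library except SG, at 265, 238, 274 and 212 TPM, and was at 63.8 TPM in SG.

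Subunits that work in a fixed ratio as proteins differed widely as mRNAs. In siCtrl the 6 subunits of the MCM2-7 ring lay between 46.1 TPM (MCM6) and 407 TPM (MCM7), an 8.82-fold range, and those of ORC between 5.78 TPM (ORC4) and 45.7 TPM (ORC6), a 7.90-fold range. MCM6 and MCM7 held the ends of the ring's range in siG3BP1 (8.88-fold), siG3BP2 (9.37-fold) and Total (9.20-fold). In SG the lowest subunit was MCM5, at 76.3 TPM, and the range was 8.19-fold. TPM is scaled to transcript length, so these levels can be set beside each other.

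**Figure D1:**
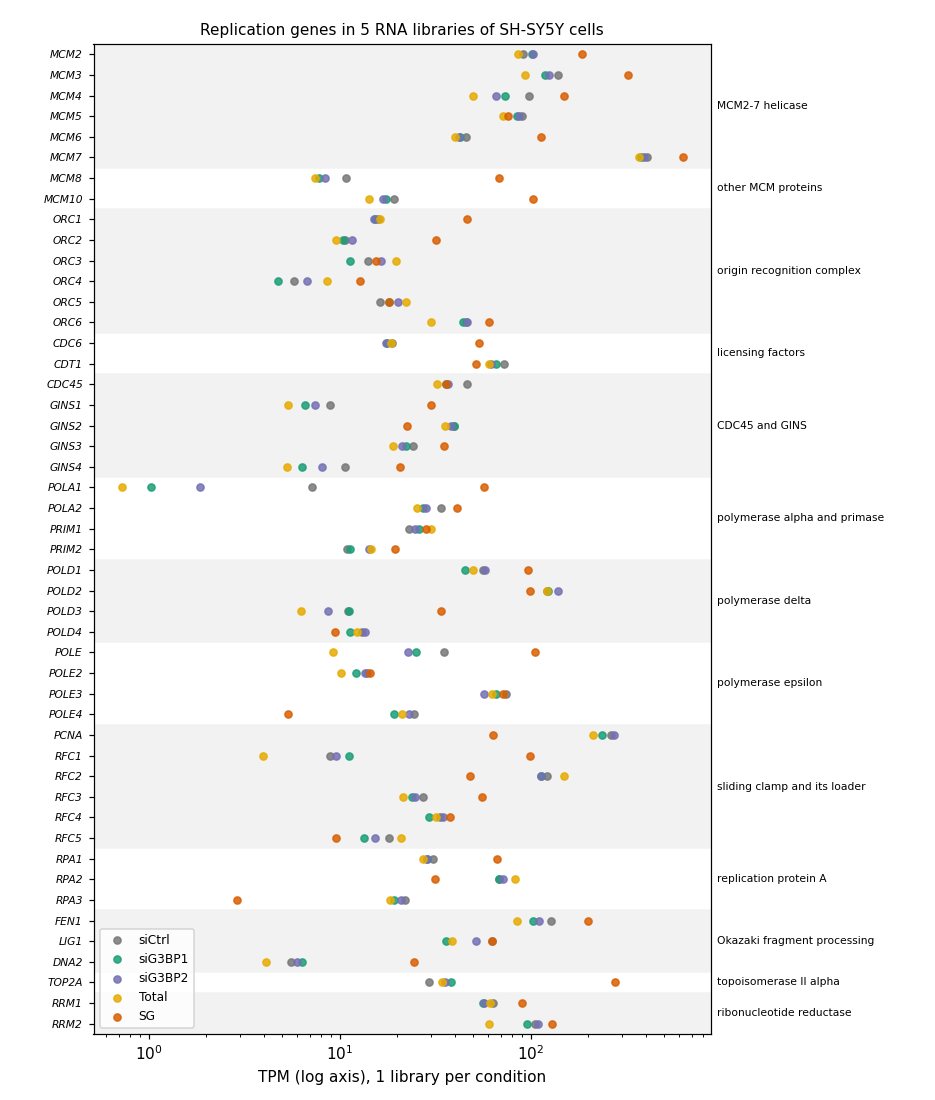
TPM (log axis) of each of the 48 replication genes in the 5 poly-A libraries, 1 point per library, with the genes grouped by role. MCM7 lies farthest to the right in each library, POLA1 spans 0.721 TPM (Total) to 57.2 TPM (SG), and RPA3 and POLE4 have their lowest point in SG.

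The next comparison set SG cores beside the lysate they came from. The largest SG to Total ratios of the list were those of POLA1 and POLE, catalytic subunits of polymerases, RFC1, the large subunit of the clamp loader, MCM8, TOP2A and MCM10, and the smallest were those of RPA3, POLE4, PCNA, RFC2, RPA2 and RFC5. A gene was counted as higher where (SG TPM + 1)/(Total TPM + 1) was above 2 with over 1 TPM in SG, and as lower where it was below 0.5 with over 1 TPM in Total. By this rule 21 of the 48 genes were higher in SG, beside 62.9% of the 13560 genes above 1 TPM in either library, and 6 were lower, beside 9.45%. The median log2 ratio of the 48 was 0.80, against 1.51 for all 13560 genes, and 35 of the 48 lay below that median. Most genes were thus higher in SG as TPM, and the replication genes as a list shared this shift to a smaller extent.

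POLA1, the catalytic subunit of the priming polymerase, had the largest ratio of the list, with 0.721 TPM in Total, against 57.2 TPM in SG, and a log2 ratio of 5.08, above that of 97.8% of genes. RFC1 followed, with 3.99 TPM in Total against 98.8 TPM in SG (log2 ratio 4.32). POLE, which copies the leading strand, was at 9.28 and 105 TPM (log2 ratio 3.37). MCM8, a helicase of the MCM family outside the ring, was at 7.44 and 68.3 TPM, TOP2A, which untangles DNA behind the fork, at 34.5 and 277 TPM, and MCM10, which helps to activate the helicase, at 14.3 and 104 TPM. The Total value of POLA1 was the lowest of the list in any of the 5 libraries, so its ratio rests on a value below 1 TPM.

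At the other end, RPA3, the smallest subunit of the single-strand binding protein, was at 18.2 TPM in Total against 2.90 TPM in SG, a log2 ratio of -2.30. POLE4 was at 21.2 and 5.35 TPM (log2 ratio -1.80). PCNA was at 212 and 63.8 TPM (log2 ratio -1.72), above that of 5.12% of genes. RFC2 was at 149 and 48.02 TPM, RPA2 at 83.1 and 31.6 TPM, and RFC5 at 20.9 and 9.57 TPM. These 6 mRNAs thus went against the general shift of the SG library, as 9.45% of all genes did. They belong to polymerase epsilon, PCNA with RFC, and RPA, and all have canonical transcripts shorter than 2500 bases.

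By role, 4 of the 6 subunits of the MCM2-7 ring were higher in SG and none was lower. Over all genes 62.9% were higher and 9.45% lower, the shares to set beside each count by role. MCM2 was among 19 genes of the list that turned below 0 when SG was rescaled, as given after the account of length. The ring then lay at 0.32 (MCM3), 0.12 (MCM4), 0.01 (MCM6), -0.35 (MCM2), -0.72 (MCM7) and -1.35 (MCM5), with no subunit 2-fold higher. MCM3, with 93.6 TPM in Total against 324 TPM in SG, had the largest ratio of the ring (log2 ratio 1.78), MCM2 was at 85.8 and 187 TPM (1.11), MCM7 at 372 and 625 TPM (0.75), and MCM5 at 71.6 and 76.3 TPM (0.09). Of ORC, 2 of 6 were higher, ORC2 (log2 ratio 1.64) and ORC1 (16.2 and 46.7 TPM, log2 ratio 1.47), while ORC3 had the smallest ratio (-0.34). The 2 licensing factors stood apart: CDC6 was at 18.7 TPM in Total against 53.8 TPM in SG (log2 ratio 1.48) and CDT1 at 60.7 and 52.0 TPM (-0.22). Of CDC45 and GINS 2 of 5 were higher, GINS1 (log2 ratio 2.29) and GINS4 (1.79), and of the Okazaki fragment enzymes FEN1 (1.23, also below 0 after that rescaling) and DNA2 (2.31). Of the polymerases, 1 of 4 subunits each of alpha with primase, delta and epsilon was higher: POLA1, POLD3 (log2 ratio 2.27) and POLE. RPA was divided, with RPA1, its large subunit, higher (log2 ratio 1.25, below 0 after that rescaling) and RPA2 and RPA3 lower. RRM2 was at 60.3 and 129 TPM (log2 ratio 1.09), and RRM1 had a log2 ratio of 0.55.

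The ratio followed transcript length within the list. Across the 48 genes the Spearman correlation of the log2 ratio was 0.74 with the length of the longest annotated transcript, 0.78 with that of the Ensembl canonical transcript, and 0.34 with the length of the gene. Over 13520 protein-coding genes these correlations were 0.63, 0.70 and 0.42. They are descriptions across genes of the same 2 libraries. Of the 24 genes with the shorter canonical transcripts (1097 to 3068 bases) 3 were higher and 6 lower in SG, with a median log2 ratio of -0.16. Of the 24 with the longer ones (3121 to 7823 bases) 18 were higher and none lower, with a median of 1.53. The 5 genes above 5000 bases had a median of 3.04, against 3.16 for the 3593 protein-coding genes of that length, and the 17 genes from above 1500 to 2500 bases had a median of 0.14, against 0.49 for 2791 genes. ORC4 went against the order by length, at 8.54 TPM in Total against 12.8 TPM in SG (log2 ratio 0.53). Its canonical transcript has 6547 bases, of which 5114 are 3′ UTR.

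**Figure D2:**
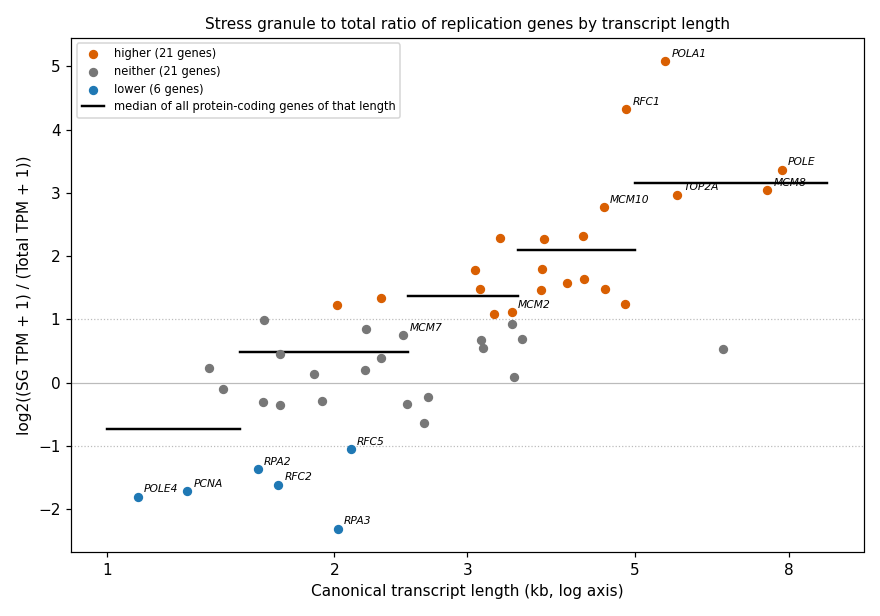
Log2 ratio of SG to Total TPM (1 added to each) against canonical transcript length (kb, log axis) for the 48 genes, coloured by the fold rule, with dotted lines at the 2-fold thresholds and black lines at the medians of all protein-coding genes in 5 classes of length. The 6 lower genes all have transcripts shorter than 2500 bases, and POLA1 (5.08) and RFC1 (4.32) lie above the median of their class.

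When SG was rescaled so that the median gene above 1 TPM in both libraries had a ratio of 1, 6 of the 48 genes were higher and 17 were lower. Of the 35 genes with a log2 ratio above 0, 19 then lay below 0, among them 5 of those counted as higher: MCM2 (-0.35), RRM2 (-0.37), FEN1 (-0.23), RPA1 (-0.19) and RFC3 (-0.095). For these genes the direction is relative to the scaling. Other genes of S phase and of mitosis gave a similar range but other medians. As deposited, the median log2 ratio was 1.45 for further G1/S and replication genes and 0.38 for mitotic genes, against 0.80 for the list. Of 32 further G1/S and replication genes 21 were higher and 3 lower in SG, from CLSPN, a checkpoint mediator (1.48 and 79.8 TPM), to DUT, which clears dUTP (103 and 34.6 TPM). Of 23 mitotic genes 7 were higher and 3 lower, from MKI67 (11.4 and 502 TPM) to UBE2C (334 and 80.0 TPM).

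Knockdown of G3BP1 left the list near its control level. By the same fold rule none of the 48 genes was higher in siG3BP1 than in siCtrl, beside 1.12% of 12280 genes, and 1 was lower, beside 1.98%. This gene was POLA1, at 7.14 TPM in siCtrl and 1.02 TPM in siG3BP1 (log2 ratio -2.01). The median log2 ratio of the list was -0.15, against -0.08 for all genes. The next lowest ratios were those of LIG1, the ligase that joins Okazaki fragments, at 62.8 and 36.2 TPM (-0.78), and GINS4, at 10.7 and 6.36 TPM (-0.67). TOP2A had the largest ratio, at 29.3 and 38.2 TPM (0.37). MCM2 (0.16), MCM7 (-0.10), ORC1 (-0.04), CDC6 (-0.09), CDT1 (-0.13), POLE (-0.47), PCNA (-0.16) and RRM2 (-0.14) lay within these bounds.

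Knockdown of G3BP2 likewise left the list near its control level. None of the genes was higher in siG3BP2, beside 1.23% of 12229 genes, and POLA1 alone was lower, at 1.85 TPM (log2 ratio -1.52), beside 2.89%. The median log2 ratio of the list was -0.08, against -0.12 for all genes. In siG3BP2 28 of the 48 genes lay above the median of all genes, whereas in siG3BP1 34 lay below it. POLE, at 35.2 TPM in siCtrl and 22.8 TPM in siG3BP2 (-0.61), and MCM4, at 97.8 and 66.0 TPM (-0.56), came next, and PRIM2 had the largest ratio (0.35). For MCM2 the log2 ratio was 0.18, for MCM7 -0.04, for ORC1 -0.06, for CDC6 -0.10, for CDT1 -0.22, for PCNA 0.05, for RRM2 0.06 and for TOP2A 0.28. Both knockdowns share the siCtrl library. With a minimum of 10 TPM in the higher library, which POLA1 does not reach, no gene was lower in either knockdown. Among the 32 other G1/S genes and the 23 mitotic genes no gene passed the rule in either knockdown. In siG3BP1 their ends were TICRR (12.8 TPM in siCtrl and 7.004 TPM in siG3BP1) and DBF4 (14.1 and 17.7 TPM), and CENPF (13.6 and 8.21 TPM) and NDC80 (9.98 and 14.1 TPM). In siG3BP2 they were TIMELESS (57.2 and 38.5 TPM) and CCNE2 (2.82 and 3.52 TPM), and CENPF (8.14 TPM) and TTK (6.33 and 8.99 TPM).

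Total and siCtrl differ in AS, siRNA and the clearing of the lysate, whose parts cannot be told apart. None of the 48 genes was higher in Total, beside 1.28% of 12173 genes, and 2 were lower, beside 19.6%. POLA1 was at 7.14 TPM in siCtrl and 0.721 TPM in Total (log2 ratio -2.24), and POLE at 35.2 and 9.28 TPM (-1.82). RFC1 (8.91 and 3.99 TPM) and MCM4 (97.8 and 49.7 TPM) came next, with log2 ratios of -0.99 and -0.96, and ORC4 had the largest ratio (0.49). The median of the list was -0.25, against -0.41 for all genes. POLA1, POLE and RFC1 are thus the genes with the largest SG to Total ratios and, at the same time, those with the lowest Total to siCtrl ratios, and both comparisons use the same Total library. The remaining genes followed in every comparison had log2 ratios of -0.08 (MCM2), -0.13 (MCM7), 0.03 (ORC1), -0.02 (CDC6), -0.25 (CDT1), -0.32 (PCNA), -0.79 (RRM2) and 0.23 (TOP2A). Of the other G1/S genes 8 of 32 were lower in Total, with CCNE1 (26.6 and 7.32 TPM) lowest and TIPIN (9.10 and 14.0 TPM) highest, and of the mitotic genes 1 of 23, MKI67 (34.1 and 11.4 TPM), with TTK (6.33 and 11.5 TPM) highest.

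The rRNA-depleted libraries address AS without purification. The summed RPKM of a gene's transcripts was used, and none of the 48 genes passed the fold rule: 0 were higher after AS, beside 3.63% of 12712 genes, and 0 were lower, beside 0.559%. The median log2 ratio of the list was 0.24, against 0.27 for all genes, and the whole list lay between -0.05 (RPA3) and 0.57 (DNA2). All genes together were shifted by that median of 0.27, so a ratio near it is no change relative to the library. POLA1 was at 55.9 RPKM in untreated and 66.6 RPKM in AS-treated cells (0.25). The other genes followed throughout were MCM2 (0.13), MCM7 (0.21), ORC1 (0.56), CDC6 (0.53), CDT1 (0.33), POLE (0.10), PCNA (0.19), RRM2 (-0.00) and TOP2A (0.14). Such sums grow with the number of annotated transcripts that share reads, and they are not compared between genes. Of 31 other G1/S genes measured, CCNE2, a cyclin of S-phase entry, was the only one higher (9.88 and 22.3 RPKM), and E2F1 (13.1 and 12.9 RPKM) had the smallest ratio. No mitotic gene passed, with KIF20A (59.6 and 84.4 RPKM) and BIRC5 (147 and 141 RPKM) at the ends.

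Smaller differences can be read from the reads behind these values. The RPKM steps correspond to 13291959 reads in the untreated and 11281587 reads in the AS library, and the canonical transcript of each gene held between 16 reads (POLD4) and 2520 reads (MCM7) in untreated cells. Exact 95% conditional binomial intervals of the ratio of reads, scaled to library size, cover counting error only, and they compare the 2 libraries and not the conditions. The interval lay above 1 for 32 genes, beside 59.3% of 7642 canonical transcripts with at least 100 untreated reads, and below 1 for none, beside 2.64%. Of the 48 genes 46 had that many reads, and they include all 32. Since the median ratio of these transcripts was 1.204, the intervals were also read against that value. They lay above it for 9 of the 46 genes, beside 17.0% of transcripts, and below it for 4, beside 16.4%. Both shares of the list are near or below the background, and the 9 ratios lay within the 5th to 95th percentile of all transcripts (0.923 to 1.64).

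The 9 genes were MCM10, ORC1, ORC2, ORC4, ORC5, CDC6, RFC1, RFC4 and DNA2. ORC1 had 257 reads in untreated and 326 in AS-treated cells, a ratio of 1.49 (95% interval 1.27 to 1.77). ORC4 had 243 and 326 reads (1.58, 1.33 to 1.87), and CDC6, which joins ORC to load the helicase, had 476 and 599 reads (1.48, 1.31 to 1.68). DNA2 had 326 and 441 reads (1.59, 1.38 to 1.84), the largest ratio of the list. The remaining ORC subunits, ORC3 and ORC6, had ratios of 1.17 (0.996 to 1.38) and 1.41 (1.12 to 1.78), and both intervals held the median.

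The 4 genes below the median were MCM2, MCM5, POLD2 and RRM2. MCM2 had 1119 and 1025 reads (ratio 1.08, 0.991 to 1.18), MCM5 733 and 673 reads (1.08, 0.973 to 1.203), POLD2, the second subunit of polymerase delta, 1083 and 934 reads (1.02, 0.930 to 1.11), and RRM2, which makes deoxynucleotides, 1986 and 1779 reads (1.06, 0.989 to 1.13). Each of these intervals held 1. MCM7 (2520 and 2462 reads, 1.15), TOP2A (2476 and 2593 reads, 1.23), PCNA (902 and 871 reads, 1.14), POLE (1107 and 1041 reads, 1.11), CDT1 (346 and 335 reads, 1.14) and POLA1 (504 and 522 reads, 1.22) held the median within their intervals.

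**Figure D3:**
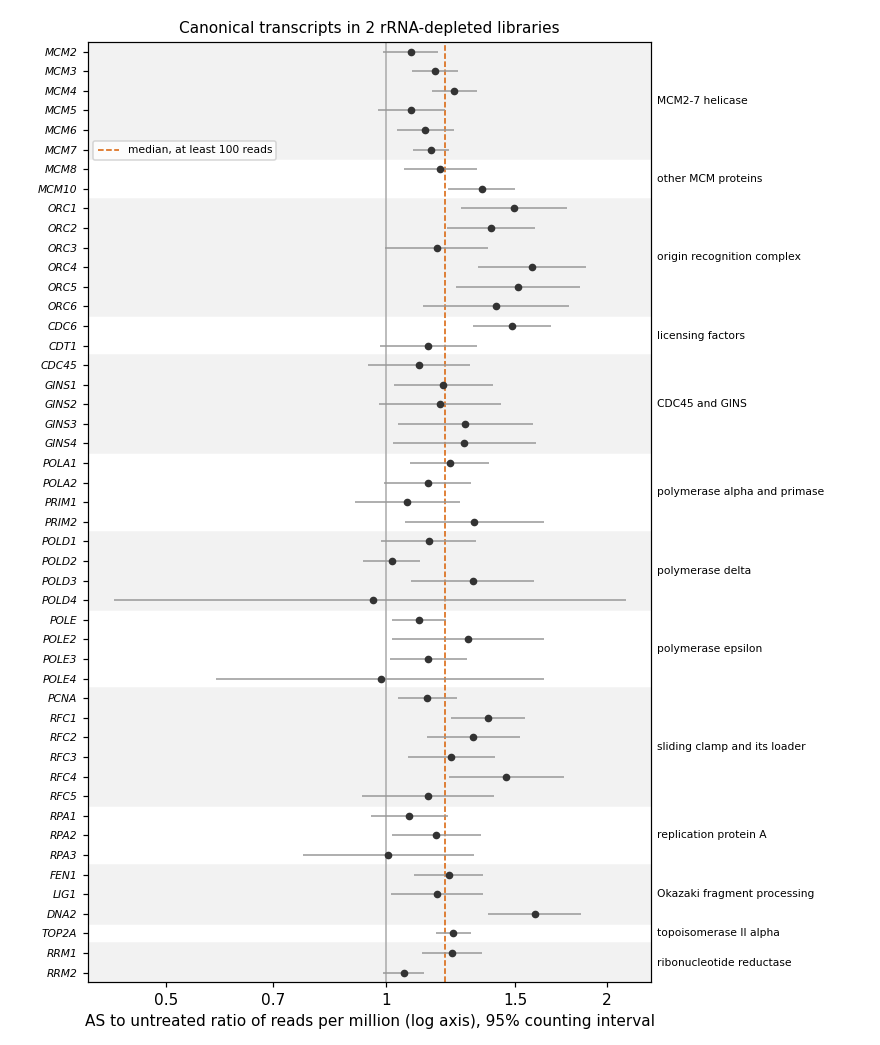
Ratio of AS to untreated reads, scaled to library size (log axis), of the canonical transcript of each gene in 1 library each, with 95% counting intervals, a solid line at 1 and a dashed line at the median of all canonical transcripts with at least 100 reads (1.204). The intervals of 9 genes lie to the right of the dashed line, and those of MCM2, MCM5, POLD2 and RRM2 to the left.

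The eCLIP table holds 1 value per gene and library, log10 of a whole number plus 1, and these numbers sum to between 4.27e+06 and 2.62e+07 per library. The number is called the eCLIP value here. Libraries were scaled to the same total before comparison. The values of the list were typical of protein-coding genes: the mean scaled log10 value over the 8 libraries had a median of 2.37 over the 48 genes and of 2.28 over 19845 genes, and 26 of the 48 lay above the latter. Of the list, 44 genes were above 0 in all 8 libraries, as were 82.8% of protein-coding genes.

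The largest values were those of POLA1 (3.57), ORC4 (3.24), PRIM2 (3.22) and POLE (3.02), and the smallest those of PCNA (0.82), FEN1 (0.95), MCM7 (1.19) and POLE3 (1.27). POLA1 as deposited was at 3.65 and 3.23 for G3BP1 and 3.71 and 3.43 for G3BP2 in untreated cells, and at 3.72 and 2.96, and 3.80 and 3.22, after AS. FEN1, the flap endonuclease, lay between 0.48 and 1.11 in the 8 libraries. The abundant mRNA of MCM7 was at 1.76 and 0.00 for G3BP1 and 1.83 and 0.85 for G3BP2 in untreated cells. These values followed the length of the gene, introns included, with a Spearman correlation of 0.85 across the list and 0.86 across protein-coding genes, so levels of different genes were compared per kb of gene span.

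Per kb, POLD1, the catalytic subunit of polymerase delta, had the highest value, 24.8 ± 8.47 (SD over the 8 libraries), followed by CDC45 (20.4 ± 2.82), ORC4 (19.2 ± 2.68) and GINS4 (18.7 ± 4.55). The ranges of these 4 genes overlapped one another, POLD1 spanning 14.3 to 41.8 and GINS4 14.0 to 27.5, so their order is within the spread of the libraries. PCNA had the lowest value, 1.03 ± 1.19, then TOP2A (1.39 ± 0.378), GINS1 (2.098 ± 0.581) and MCM6 (2.25 ± 0.996). The highest library of TOP2A (1.96) lay below the lowest of POLD1 (14.3). The median of the list was 7.88, against 6.99 for protein-coding genes. The remaining genes followed throughout were POLE (16.5), POLA1 (12.3), RRM2 (9.87), MCM2 (5.43), CDC6 (4.8), ORC1 (4.61), CDT1 (4.53) and MCM7 (3.45).

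The value per kb also differed between subunits of a complex. In the ring it ran from 2.25 (MCM6) to 10.5 (MCM4), in CDC45 with GINS from 2.098 (GINS1) to 20.4 (CDC45), and in PCNA with RFC from 1.03 (PCNA) to 16.5 (RFC2). Its Spearman correlation over the 48 genes was -0.21 with the TPM of Total and -0.02 with the SG to Total ratio. Over protein-coding genes these correlations were 0.07 and 0.06. Without division by gene span, the mean eCLIP value correlated with the SG to Total ratio at 0.26 over the 48 genes. Over 13520 protein-coding genes this correlation was 0.36. Per kb of the summed spans of all transcripts, which also counts introns once for each transcript, the list's median percentile among protein-coding genes was lower, 23.5 in place of 55.4.

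**Figure D4:**
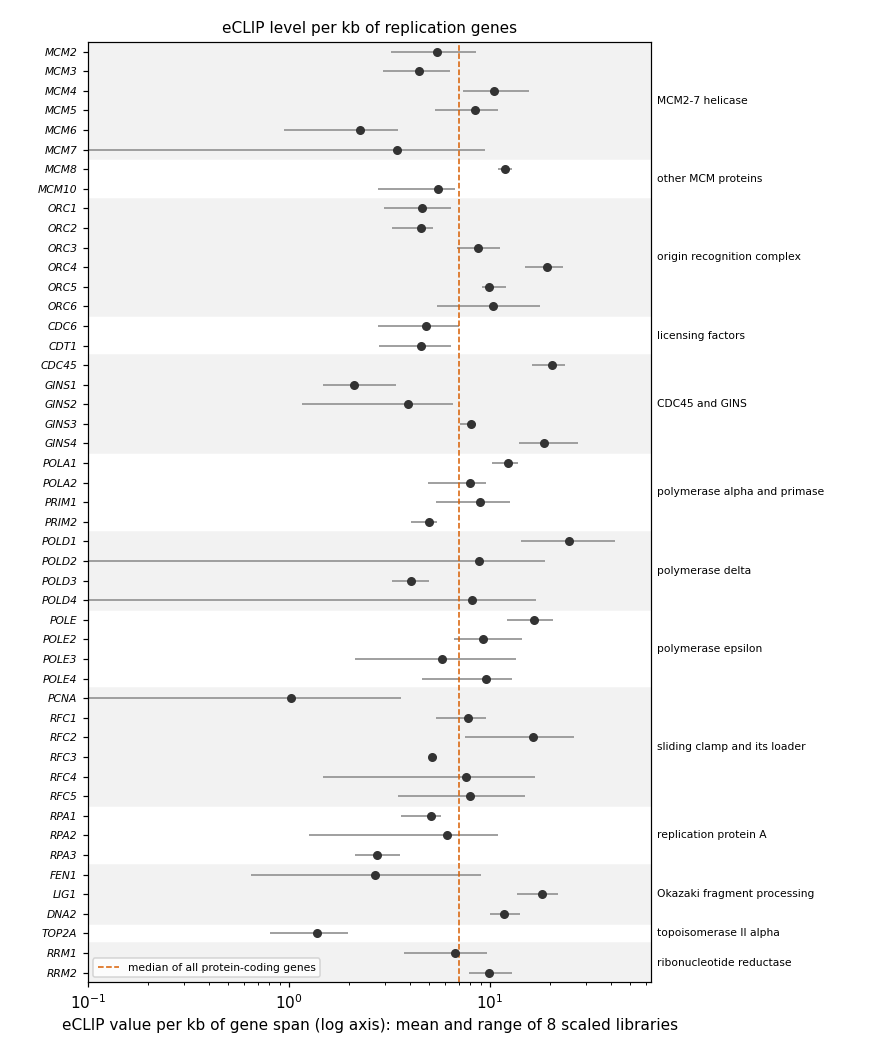
eCLIP value per kb of gene span (log axis) of the 48 genes, as the mean (point) and the range (line) of the 8 scaled libraries of both proteins and treatments, with a dashed line at the median of protein-coding genes (6.99). Lines that reach the left edge include a library at 0. POLD1, CDC45, ORC4 and GINS4 lie farthest to the right, and PCNA and TOP2A farthest to the left.

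The letters CCAGCCTGG and their reverse complement CCAGGCTGG, forms of a motif that the study names for RNA bound by G3BP proteins, were counted on both strands of the gene spans (GRCh38). All 48 genes held at least 1 match, as did 87.1% of 20046 protein-coding genes, and the median density was 0.705 per kb, against 0.402 per kb for protein-coding genes. Of 1633 matches in the list, 1366 lay in introns of the canonical transcript, 5 in its coding exons and 24 in its other exonic sequence. The density did not follow the eCLIP value per kb across the list (Spearman correlation 0.07, and 0.18 over protein-coding genes). RFC2 (1.92 per kb), PRIM1 (1.78) and DNA2 (1.58) were the densest, and POLD2 (0.103) and RFC3 (0.135) the sparsest. One match each is shown as 29 bases in the direction of the gene, with the motif in capitals, for a gene with a high value per kb (POLD1, chr19:50415743-50415771, plus strand, coding exon) and for the most abundant mRNA (MCM7, chr7:100098198-100098226, minus strand, coding exon).
POLD1: gggagtgcgcCCAGCCTGGgcgaccgcgt
MCM7: caaggattgcCCAGCCTGGagaccacgtc

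Whether the eCLIP values of these genes differed after AS was tested with limma over 19259 genes. Without the SMInput libraries, binding is not separated from RNA level in these values. No gene of the list passed an adjusted p of 0.05 for either protein, and neither did any other gene (0% of genes called for G3BP1, for G3BP2, between the proteins and for the interaction). For G3BP1 3 of the 48 genes had an unadjusted p below 0.05, beside 4.0% of all genes, and all 3 were lower after AS: RPA2, POLD2 and GINS2. For G3BP2 2 had, beside 2.74%, both lower: PCNA and RPA2. The median change of the list was -0.01 for G3BP1 and -0.04 for G3BP2 on the log10 scale, against -0.00 for all genes in both.

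RPA2, which binds single-stranded DNA at the fork, as deposited was at 2.52 and 2.02 for G3BP1 and 2.59 and 2.04 for G3BP2 in untreated cells, and at 1.61 and 1.36, and 1.77 and 1.61, after AS. After scaling, the 4 untreated libraries lay between 2.23 and 2.41 and the 4 AS libraries between 1.48 and 1.94, with no overlap. The log10 change was -0.68 ± 0.188 (SE) for G3BP1 (adjusted p = 0.951 by limma). It was -0.55 ± 0.188 for G3BP2 (adjusted p = 1.00 by limma). RPA2 RNA in the rRNA-depleted libraries had 410 and 407 reads, a ratio of 1.17 (1.02 to 1.34), and this interval held the median of 1.204. Whether RNA level has a part in the eCLIP difference was not tested.

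PCNA was at 1.2 and 1.26 for G3BP1 and 1.40 and 0.90 for G3BP2 in untreated cells, as deposited. After AS it was at 0.48 and 0.70 for G3BP1 and at 0.00 in both G3BP2 libraries, so few counts stand behind it. Its log10 change was -0.54 ± 0.341 for G3BP1 and -1.14 ± 0.341 for G3BP2, the latter with an adjusted p = 1.00 by limma. POLD2 was at 2.42 and 1.81, and 2.34 and 1.83, in untreated cells, and at 1.80 and 0.00, and 1.93 and 0.48, after AS. Its change was -1.40 ± 0.540 for G3BP1 (adjusted p = 0.951 by limma) and -0.85 ± 0.540 for G3BP2. GINS2, a subunit of the GINS complex, changed by -0.54 ± 0.218 for G3BP1 (adjusted p = 0.951 by limma) and by -0.18 ± 0.218 for G3BP2. Its G3BP2 libraries after AS, at 1.38 and 1.94 after scaling, overlapped the untreated ones.

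For the other genes followed throughout, the changes were small beside their errors. POLA1 changed by 0.01 ± 0.0548 for each protein, with 95% intervals from -0.12 to 0.14. The intervals for POLE were -0.14 to 0.23 (G3BP1) and -0.19 to 0.19 (G3BP2), and those for RRM2 -0.14 to 0.16 and -0.15 to 0.15. Wider ones held for MCM2 (-0.17 to 0.48 and -0.09 to 0.56), ORC1 (-0.27 to 0.43 and -0.31 to 0.39), CDC6 (-0.46 to 0.32 and -0.64 to 0.14), CDT1 (-0.53 to 0.47 and -0.59 to 0.41) and TOP2A (-0.44 to 0.40 and -0.33 to 0.51). For MCM7, whose G3BP1 duplicates stood at 1.61 and 0.00 after scaling in untreated cells, they spanned -1.56 to 1.62 and -1.13 to 2.05. A change of several fold in MCM7 was thus not detectable with these libraries.

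**Figure D5:**
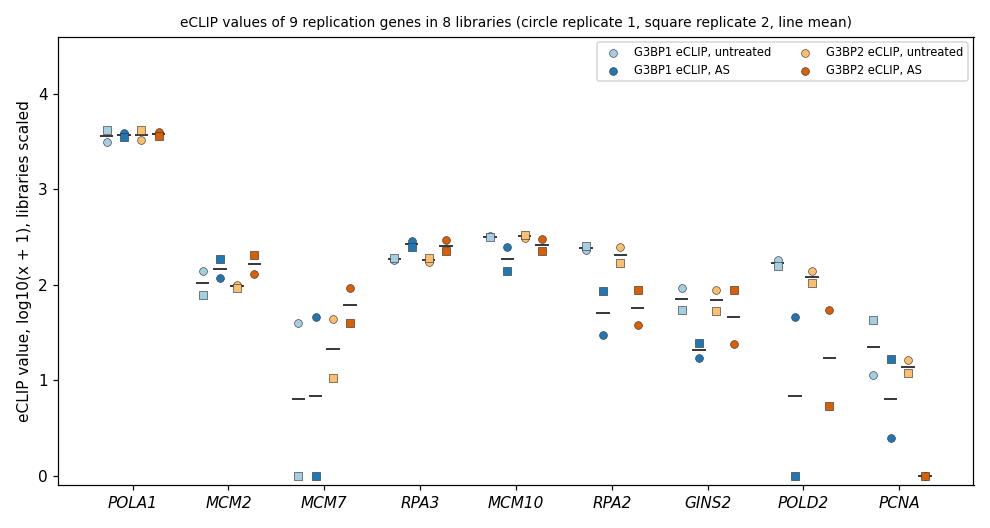
Scaled log10 eCLIP values of 9 genes in the 8 libraries, with circles for replicate 1, squares for replicate 2 and lines for the mean of each protein and treatment. RPA2 and POLD2 have all 4 AS libraries below all 4 untreated libraries, POLA1 is level, and the duplicates of MCM7 and of POLD2 after AS lie far apart.

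The 2 proteins did not differ detectably on these RNAs. Between G3BP2 and G3BP1, averaged over both treatments, none of the 48 genes had an unadjusted p below 0.05 by limma, beside 1.22% of all genes, and the median difference was -0.00 on the log10 scale. PCNA had the lowest difference, -0.50 ± 0.241 (95% interval -1.08 to 0.07), and MCM7 the highest, 0.74 ± 0.475 (-0.38 to 1.86). The interval was -0.08 to 0.10 for POLA1, -0.10 to 0.16 for POLE, -0.21 to 0.00 for RRM2, -0.22 to 0.23 for MCM2, -0.33 to 0.16 for ORC1, -0.26 to 0.29 for CDC6, -0.40 to 0.31 for CDT1 and -0.27 to 0.33 for TOP2A. For the interaction, the difference of the AS change between the proteins, none of the 48 had an unadjusted p below 0.05 either, beside 0.758% of all genes. Among the 10 genes followed throughout it ran from -0.61 (PCNA) to 0.43 (MCM7), with 0 inside each 95% interval. The changes of both proteins were therefore also averaged, a comparison of 4 libraries with 4 that was chosen after the data were seen. Deviations of libraries with the same replicate number correlated between the proteins, at 0.414 in untreated and 0.322 in AS-treated cells. The fit took the 8 libraries as independent, so the errors of this average can be too small, and the 4 libraries per treatment may not be separate replicates.

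In that average no gene of the list passed an adjusted p of 0.05, beside 0.0467% of all genes (9 of 19259). An unadjusted p below 0.05 was reached by 4 of the 48 genes, beside 5.87%: RPA2 (-0.61 ± 0.133, adjusted p = 0.392 by limma), PCNA (-0.84 ± 0.241), POLD2 (-1.12 ± 0.382) and, in the other direction, RPA3 (0.15 ± 0.0568). All 4 AS libraries lay below all 4 untreated libraries for 3 genes, MCM10, POLD2 and RPA2, beside 2.93% of genes, and above them for 1, RPA3, beside 2.63%. The scaled values of RPA3 were 2.25 to 2.29 in untreated and 2.36 to 2.47 in AS-treated cells, and those of MCM10 2.49 to 2.52 and 2.14 to 2.48. RPA2 and RPA3 sit in the same trimer, and both were lower in SG than in Total. Their eCLIP values moved to opposite sides, but RPA3 had an adjusted p = 0.774 by limma. The contrast of these genes was seen in the values and was not tested.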

How the data were processed

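The 48 genes, their roles and the other gene lists were chosen with earlier results of these data known. The authors aligned RNA-seq reads to GRCh38.p13 (hg38 in the submitters' notes) with HISAT2 2.1.0 and estimated TPM with StringTie on GENCODE release 41. They deposited TPM of protein-coding genes for the siRNA, Total and SG libraries. The values the authors deposited per transcript for the rRNA-depleted libraries are headed TPM but behave as RPKM, since value times length gave whole multiples of 1 step for 100% of the values above 0 (within 0.02 of a read), and they are called RPKM here. Reads compatible with several transcripts were counted for each. For eCLIP the deposited values are log10 of a whole number plus 1, rounded and not scaled, and which steps of the authors' peak calling they include is not stated. limma 3.58.1 in R 4.3.3 was used on these log10 values. SMInput libraries were not analysed here.

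Lengths, spans and sites came from GENCODE release 44 on GRCh38, and promoters from RefSeq. By ID, 91.1% of the 256980 transcripts were matched. Fold rules used a pseudocount of 1, thresholds of 2 and 0.5 and a minimum of 1. limma used an intensity trend and Benjamini-Hochberg adjustment over genes above 0 in at least 2 of 8 libraries, with all 4 groups in 1 fit. Python 3.11.15 with scipy 1.17.1 did the rest. On simulated data, with a log10 change of 1 given to 200 of 19259 genes for G3BP1 after AS, limma called 129 of these and 12 others. With a change of 0.5 it called 47 of the 200 and 0 others, and with a change of 2 it called 179 and 11 others. Most changes of 0.5 would thus be missed. Paralogs and overlapping genes can exchange reads, and TPM gives no depth. Genes past a fold were named, or the 6 largest and 6 smallest where over 10 passed, with the 4 largest and 4 smallest eCLIP values and 10 genes followed in every comparison. RPA2, POLD2, GINS2, MCM10, RPA3 and the ends of the other comparisons were named after their values were seen.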

Additional observations from a re-analysis of the deposited data

How the results depend on the processing

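Of the alternatives, rescaling and the fold threshold moved the SG counts. With SG rescaled to a median ratio of 1, 6 genes were higher and 17 lower, the median was -0.64, and MCM2 (-0.35), RRM2 (-0.37), FEN1 (-0.23), RPA1 (-0.19) and RFC3 (-0.095) of the genes counted as higher reversed. With thresholds of 4 and 0.25, 9 were higher and 1 lower. A minimum of 10 TPM left 0 lower in siG3BP1 and in siG3BP2 and 1 in Total, a pseudocount of 0.1 gave 4 lower in Total, and thresholds of 1.5 and its inverse gave 3, 2 and 11.

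In eCLIP no filter or left-out library brought a gene of the list past the threshold. Without a filter on low values 2 genes of all passed for G3BP1 and 5 for G3BP2. Without scaling the median difference of the list between G3BP2 and G3BP1 was 0.135. Leaving out 1 library gave 0 to 162 genes of all for G3BP1 after AS, 0 to 7 between the proteins, 0 to 8 for the interaction and 0 to 56 for both proteins averaged, the highest counts each without AS G3BP1 replicate 1. For both proteins averaged, 1 gene passed with a minimum above 10 in 2 libraries.

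Replicate numbers were shared by only 2 libraries per group. Deviations of libraries with the same number correlated at 0.414 (untreated) and 0.322 (AS) between the proteins, and at 0.0600 to 0.147 between treatments. Totals were 2.27e+07 to 2.62e+07 for replicate 1 and 4.27e+06 to 1.07e+07 for replicate 2. Whether the numbers stand for a true pairing is open. With a replicate block no gene of the list passed. With a replicate block and values not scaled, 2 genes of all passed for G3BP1, 2 for G3BP2 and 34 for both proteins averaged, 1 of them in the list (RPA2, adjusted p = 0.0459 by limma, against 0.392 as reported), and the median difference between the proteins was 0.135. RPA2 fell in each of the 13 alternatives for that average, by 0.50 to 0.73.

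Per kb of summed transcript spans the median percentile of the list was 23.5. The correlation of the SG ratio with coding length was 0.35 for the longest transcript, 0.50 for the mean of coding transcripts and 0.61 for the canonical transcript, and with GC content -0.32, -0.24 and -0.22. The other 263 alternatives moved these summaries by less than a set limit, but the side was not kept throughout. The median G3BP1 change of the list after AS was -0.01 as reported and 0.02 without AS G3BP1 replicate 1. The cause of each difference was not tested.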
